A study of Mus musculus with 6 samples.

Results

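The tricarboxylic acid (TCA) cycle was followed through 9 genes in primary mouse chondrocytes in which the pyruvate kinase gene Pkm had been silenced. The genes were Cs, Idh2, Idh3a, Idh3b, Ogdh, Suclg1, Sdha, Fh1 and Mdh2, chosen by symbol to give at least 1 gene for most steps of the cycle, out of 55416 genes in the deposited table. All 9 passed the filter on low counts, which left 15269 genes. The chondrocytes came, by the sample labels, from neonatal mouse knee joints and were grown in DMEM/F12 with fetal bovine serum. The labels call the siNC cultures (n = 3) wild type, and the study's supplement gives them a scrambled siRNA. The siPKM2 cultures (n = 3) received an siRNA against Pkm2, and the genotype labels of their replicates 2 and 3 name other PKM numbers, so the grouping here follows the sample titles. The supplement states 50 nM siRNA by lipofection and a check of the knockdown after 48 h, describes chondrocytes of adult mice, and does not say which siRNA the sequenced cultures received. An siRNA lowers a transcript for a time and in part, and no culture had a deleted allele.

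Pyruvate kinase makes pyruvate at the end of glycolysis, and pyruvate enters the mitochondrion to become the acetyl-CoA that feeds the cycle. Each turn oxidises that acetyl group through citrate, isocitrate, 2-oxoglutarate, succinyl-CoA, succinate, fumarate and malate back to oxaloacetate, and yields the reduced cofactors that drive the respiratory chain. Chondrocytes live in avascular cartilage and are known for a strong reliance on glycolysis. The cycle enzymes are encoded in the nucleus, and several of them are complexes of different subunits, so that the transcripts of 1 enzyme can differ in level.

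Pkm itself was read first, as a check of the labels. It stood at 1654, 2209 and 1293 TPM (transcripts scaled per length and to the same total in each library) in siNC replicates 1, 2 and 3 and at 245, 428 and 231 TPM in siPKM2 replicates 1, 2 and 3, with no overlap. Its log2 fold change, siPKM2 over siNC, was -2.51 (95% interval -3.30 to -1.72, edgeR adjusted p = 0.074), and -2.53 (edgeR adjusted p = 0.0093) with the replicate block that is explained below. The gene-level values do not separate the splice forms PKM1 and PKM2. Libraries held between 22316996 and 25691029 counts. Replicate 2 of both groups stood apart on the first principal component: 11 chondrocyte markers summed to 4057 TPM in siNC replicate 2 and 5454 TPM in siPKM2 replicate 2, against 15276 to 18868 TPM in the other 4 libraries. The 8 interferon-response genes summed to 40.3, 1955 and 74.1 TPM in siNC and to 1312, 3380 and 939 TPM in siPKM2. Of 6 macrophage markers the sum ran from 5.14 to 113 TPM in siNC and from 11.0 to 83.1 TPM in siPKM2, with Ptprc, Adgre1 and Itgam at or near 0 in every library. Another of the 6, Cd14, rose with the block (log2 fold change 1.35, edgeR adjusted p = 0.043). The endothelial markers, 5 in number, summed to no more than 1.05 TPM in any library. The 5 osteoblast markers summed to 337, 47.6 and 225 TPM in siNC and to 139, 45.9 and 72.3 TPM in siPKM2. In pair 2 the sum differed little, and Alpl rose from 7.31 TPM in siNC to 17.1 TPM in siPKM2. Among the 5, Ibsp fell with the block (log2 fold change -1.45, edgeR adjusted p = 0.028). Of the 6 markers of fibroblasts and synovium the sum ran from 2415 to 4778 TPM in siNC and from 1622 to 3361 TPM in siPKM2. Without the block, 4 of the 6 log2 fold changes were below 0, and the median of the 6 was -0.33. Only 1 of them, Prg4, passed with the block, and it rose (2.15, edgeR adjusted p = 0.027). The 5 muscle markers summed to 0.33 to 2.83 TPM in siNC and 3.39 to 6.42 TPM in siPKM2, with 4 of them under 1 TPM throughout and Des higher with the block (2.46, edgeR adjusted p = 0.036). Of the 11 chondrocyte markers, Sox5 fell (-0.41, edgeR adjusted p = 0.026) and Matn3 rose (0.86, edgeR adjusted p = 0.021) with the block. Of all genes, 23.1% had an adjusted p under 0.05 with the block in edgeR's test. Cd14, Ibsp, Alpl, Prg4, Des, Sox5 and Matn3 are named here after their values were seen. The part of these shifts in the results below was not tested. In bulk RNA, fewer cells of a type and less RNA per cell cannot be told apart.

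For most of the 9 cycle genes the levels in siNC and siPKM2 libraries overlapped. Replicate pairs were compared in CPM, counts scaled to a common library total by TMM factors. Cs, which makes citrate, and Idh3a, the catalytic subunit of the NAD-dependent isocitrate dehydrogenase, were higher in every replicate pair. So were Ogdh, Suclg1 and Sdha, while Idh2, the NADP-dependent isocitrate dehydrogenase, was lower in every pair. In TPM, Ogdh was not higher in pair 2 (50.67 in siNC, 50.54 in siPKM2). On that scale Fh1 was higher and Idh3b lower in every pair. Of all genes, 61.1% had the same direction in all 3 pairs in CPM. The main test was edgeR's quasi-likelihood test. After Benjamini-Hochberg adjustment over every tested gene, 0 of the 9 had an adjusted p under 0.05, with or without a fold above 2, as had 0 of all 15269 genes (0%). At an unadjusted p under 0.05 there was 1 of the 9, Idh3a, against 17.6% of all genes, and DESeq2 without a block called 0 of the 9 against 5.38%. Libraries with the same replicate number deviated together, so the replicate number was also fitted as a block. With the block, 2 of the 9 rose, Cs and Idh3a, and 0 fell. That is 22.2% of the members against 23.1% of all genes (12.3% higher, 10.8% lower), close to the background. Beyond a fold of 2 the blocked count was 0 of the 9, against 5.83% of all genes. DESeq2 with the block called the same 2 members, against 26.9% of all genes. The median log2 fold change of the 9 was 0.09, with and without the block, against -0.02 over all genes without it, and 7 of the 9 estimates were above 0.

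**Figure D1:**
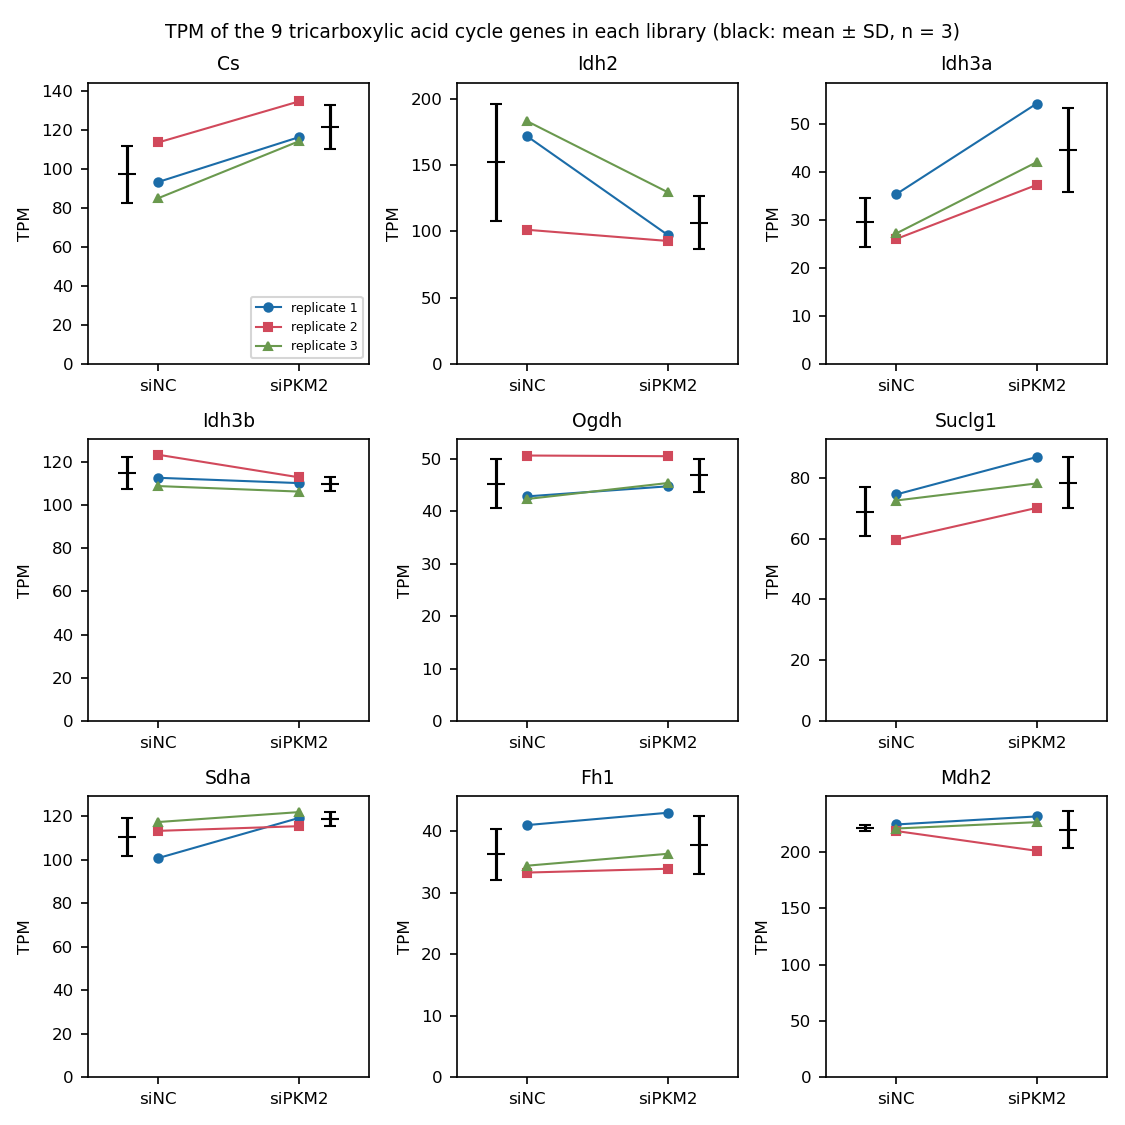
TPM of each of the 9 genes (vertical axes, each from 0) in the siNC and siPKM2 libraries, with lines joining libraries of the same replicate number and black marks for the mean ± SD of 3 libraries. The Cs and Idh3a points are all higher in siPKM2 than in siNC, Idh2 is far lower in replicates 1 and 3 and little lower in replicate 2, and the Mdh2 points lie between 201 and 231 TPM.

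The levels of the 9 genes, in TPM and so per transcript length, spanned a wide range. In siNC they ran from 29.5 ± 5.08 for Idh3a to 221 ± 2.93 for Mdh2 (SD, n = 3). From the top the order was Mdh2, Idh2, Idh3b, Sdha, Cs, Suclg1, Ogdh, Fh1 and Idh3a. Mdh2 lay above every library of Idh2, the next gene, and the ranges of Idh2, Idh3b, Sdha and Cs overlapped from each to the next. Suclg1 and Ogdh each stood clear of their neighbours, and Fh1 and Idh3a overlapped. In siPKM2 the order was Mdh2, Cs, Sdha, Idh3b, Idh2, Suclg1, Ogdh, Idh3a and Fh1. There, Idh2 had moved from the second to the fifth place and Cs from the fifth to the second, with Cs overlapping Sdha, Idh2 overlapping Idh3b, and Ogdh, Idh3a and Fh1 overlapping in turn. Summed over the 9 genes the level was 876 ± 31.4 TPM in siNC and 884 ± 30.7 TPM in siPKM2. The difference was smaller than either SD, which leaves the pairing out. In replicates 1, 2 and 3 the sum was 896, 839 and 891 TPM in siNC. In siPKM2 it was 903, 848 and 900 TPM, slightly higher in every pair.

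Citrate synthase, the entry of acetyl-CoA into the cycle, is encoded by Cs (GRCm38, chr10:128337734-128362479, plus strand). Cs stood at 93.5, 114 and 85.2 TPM in siNC replicates 1 to 3 and at 116, 135 and 114 TPM in siPKM2. Every siPKM2 library lay above its paired siNC library and also, if narrowly, above the highest siNC library. The log2 fold change was 0.36 (SE 0.16, 95% interval -0.01 to 0.74), a fold of 1.29, with an edgeR adjusted p of 0.30. With the replicate block it was 0.37 (SE 0.09) with an edgeR adjusted p of 0.037. Within pairs 1, 2 and 3 the difference in log2(CPM + 0.5), where CPM is counts scaled to a common library total by TMM factors, was 0.30, 0.31 and 0.50. An exact permutation test on log2(CPM + 0.5), run without the pairing, gave p = 0.1, the smallest value that 3 libraries against 3 can give. Idh3a, Sdha, Dlst, Sdhb, Sdhd and Pkm gave the same value in that test. The groups did not overlap in CPM for 24.3% of all genes.

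Isocitrate is oxidised by separate enzymes. IDH3, the NAD-dependent one, is built of the catalytic subunit encoded by Idh3a (chr9:54586334-54604661, plus strand) and regulatory subunits encoded by Idh3b (chr2:130279309-130284547, minus strand) and Idh3g, which is no member. Idh3a stood at 35.4, 26.1 and 27.2 TPM in siNC and at 54.2, 37.3 and 42.0 TPM in siPKM2. No siPKM2 library was as low as any siNC library, and the difference was close to the same in the 3 pairs, at 0.59, 0.65 and 0.61 in log2(CPM + 0.5). The fitted log2 fold change was the largest among the 9, 0.62 (SE 0.23, 95% interval 0.06 to 1.17), a fold of 1.54, with an adjusted p of 0.24 in edgeR's test. Blocking on the replicate number gave 0.62 (SE 0.08) and an edgeR adjusted p of 0.013. Of all genes tested, 23.5% had a larger absolute log2 fold change than Idh3a, which puts the size of its change in context.

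The regulatory subunits did not share that rise. Idh3b stood at 113, 123 and 109 TPM in siNC and at 110.1, 113 and 106 TPM in siPKM2, and the groups overlapped. The fitted value was -0.03 in log2 fold change (95% interval -0.31 to 0.26), and -0.03 (-0.22 to 0.16) with the block. Idh3g stood at 144, 102 and 149.9 TPM in siNC and at 96.6, 86.7 and 106 TPM in siPKM2, where only siNC replicate 2 reached into the siPKM2 range. For Idh3g the log2 fold change was -0.44 (SE 0.23, edgeR adjusted p = 0.38), and -0.42 (SE 0.11, edgeR adjusted p = 0.045) with the block. Idh3a made up 12.1%, 10.4% and 9.52% of the summed IDH3 subunit TPM in siNC and 20.8%, 15.8% and 16.6% in siPKM2. This share and the ratios of transcripts given here and below were chosen after the values were seen and are descriptions. The Idh3a to Idh3g ratio was 0.228 ± 0.0405 in siNC and 0.463 ± 0.0862 in siPKM2 (SD, n = 3).

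**Figure D2:**
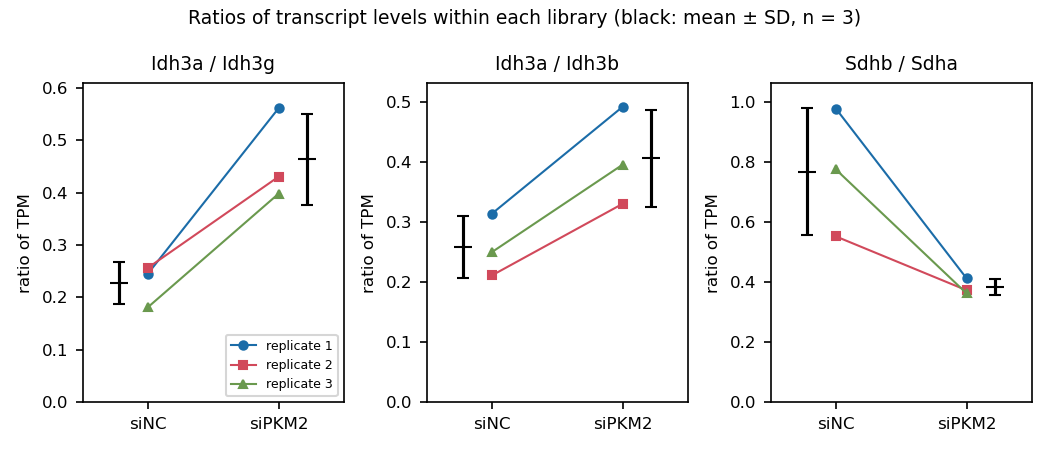
Ratio of TPM of 2 genes within each library (vertical axes from 0) for Idh3a to Idh3g, Idh3a to Idh3b and Sdhb to Sdha, with lines joining libraries of the same replicate number and black marks for the mean ± SD of 3 libraries. Both ratios with Idh3a on top are higher and the Sdhb to Sdha ratio is lower in every siPKM2 library than in every siNC library.

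Idh2 (chr7:80094846-80115392, minus strand) encodes the mitochondrial NADP-dependent isocitrate dehydrogenase, which supplies NADPH within the organelle. It stood at 172, 101 and 183 TPM in siNC and at 97.4, 92.9 and 129.6 TPM in siPKM2. The groups overlapped only through siNC replicate 2, which lay at the level of the siPKM2 libraries. The pair differences in log2(CPM + 0.5) were -0.83, -0.05 and -0.43, so the pairs shared a direction but not a size. For Idh2 the fitted log2 fold change was -0.49 (SE 0.30, 95% interval -1.20 to 0.23, edgeR adjusted p = 0.45), and -0.44 (edgeR adjusted p = 0.097) with the block. Without replicate pair 2 the blocked value was -0.64 with an edgeR adjusted p of 0.0062. In siNC, Idh2 transcripts were 4.85, 3.89 and 6.73 times as many as Idh3a transcripts, and in siPKM2 they were 1.80, 2.49 and 3.08 times as many.

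The 2-oxoglutarate dehydrogenase complex turns 2-oxoglutarate into succinyl-CoA. Ogdh (chr11:6291633-6356642, plus strand), its first component, stood at 42.9, 50.7 and 42.4 TPM in siNC and at 44.8, 50.5 and 45.4 TPM in siPKM2, with overlap. The log2 fold change was 0.08 (95% interval -0.21 to 0.38, edgeR adjusted p = 0.78). The transferase subunit gene Dlst had a log2 fold change of 0.27 (edgeR adjusted p = 0.063 with the block). Dld, the lipoamide dehydrogenase that this complex shares with pyruvate dehydrogenase, stood at 64.8, 60.2 and 58.3 TPM in siNC and at 81.6, 70.3 and 67.1 TPM in siPKM2. Its log2 fold change was 0.33, and it rose under the block (0.33, edgeR adjusted p = 0.035).

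Succinyl-CoA ligase yields succinate together with GTP or ATP. Suclg1 (chr6:73248382-73276911, plus strand) encodes the subunit common to both forms. It stood at 74.6, 59.7 and 72.6 TPM in siNC and at 86.9, 70.2 and 78.2 TPM in siPKM2, higher in each pair while the groups overlapped. The log2 fold change was 0.21 (SE 0.18, edgeR adjusted p = 0.59), and 0.22 (SE 0.08, edgeR adjusted p = 0.093) with the block. Of the partner subunits, Sucla2, that of the ATP-forming enzyme, had a log2 fold change of 0.38 and rose under the block (0.38, edgeR adjusted p = 0.040). Suclg2, that of the GTP-forming enzyme, had -0.17 (edgeR adjusted p = 0.83, and 0.22 with the block).

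Succinate dehydrogenase works both in the cycle and as complex II of the respiratory chain. Sdha (chr13:74322254-74350280, minus strand), the flavoprotein that oxidises succinate, stood at 101, 113 and 117 TPM in siNC and at 119, 115 and 122 TPM in siPKM2. In TPM siPKM2 replicate 2 fell below the highest siNC library, and in CPM the groups did not overlap (172 to 187 against 189.7 to 215). The log2 fold change was 0.17 (95% interval -0.15 to 0.49, edgeR adjusted p = 0.57), and 0.17 (edgeR adjusted p = 0.17) with the block. Sdhb, the iron-sulphur subunit that takes the electrons on from Sdha, stood at 98.6, 62.6 and 91.0 TPM in siNC and at 49.2, 43.1 and 44.2 TPM in siPKM2, with no overlap. Its log2 fold change was -0.87 (SE 0.24, edgeR adjusted p = 0.16), and it fell under the block (-0.83, SE 0.14, edgeR adjusted p = 0.018). The Sdhb to Sdha ratio of TPM was 0.979, 0.553 and 0.776 in siNC and 0.413, 0.374 and 0.363 in siPKM2. Of the membrane anchor genes, Sdhc had a log2 fold change of -0.08 (edgeR adjusted p = 0.81, and 0.52 with the block). Sdhd had 0.30 (edgeR adjusted p = 0.26, and 0.054 with the block), and passed in DESeq2 with the block (adjusted p = 0.048) and in edgeR with the block without pair 2 (adjusted p = 0.021).

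Fumarase and malate dehydrogenase close the cycle. Fh1 (chr1:175600374-175625635, minus strand) stood at 41.0, 33.3 and 34.4 TPM in siNC and at 43.0, 33.9 and 36.4 TPM in siPKM2. Mdh2 (chr5:135778480-135790398, plus strand), the most abundant of the 9, stood at 224, 218 and 220.5 TPM in siNC and at 231, 201 and 226 TPM in siPKM2. Both groups overlapped for both genes. Log2 fold changes were 0.09 for Fh1 (95% interval -0.42 to 0.61, edgeR adjusted p = 0.87) and 0.02 for Mdh2 (-0.34 to 0.38, edgeR adjusted p = 0.96). For Mdh2 the sign depended on the scaling, being below 0 with upper-quartile factors, with no scaling and in TPM. With the block the intervals were -0.16 to 0.33 for Fh1 and -0.19 to 0.22 for Mdh2.

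**Figure D3:**
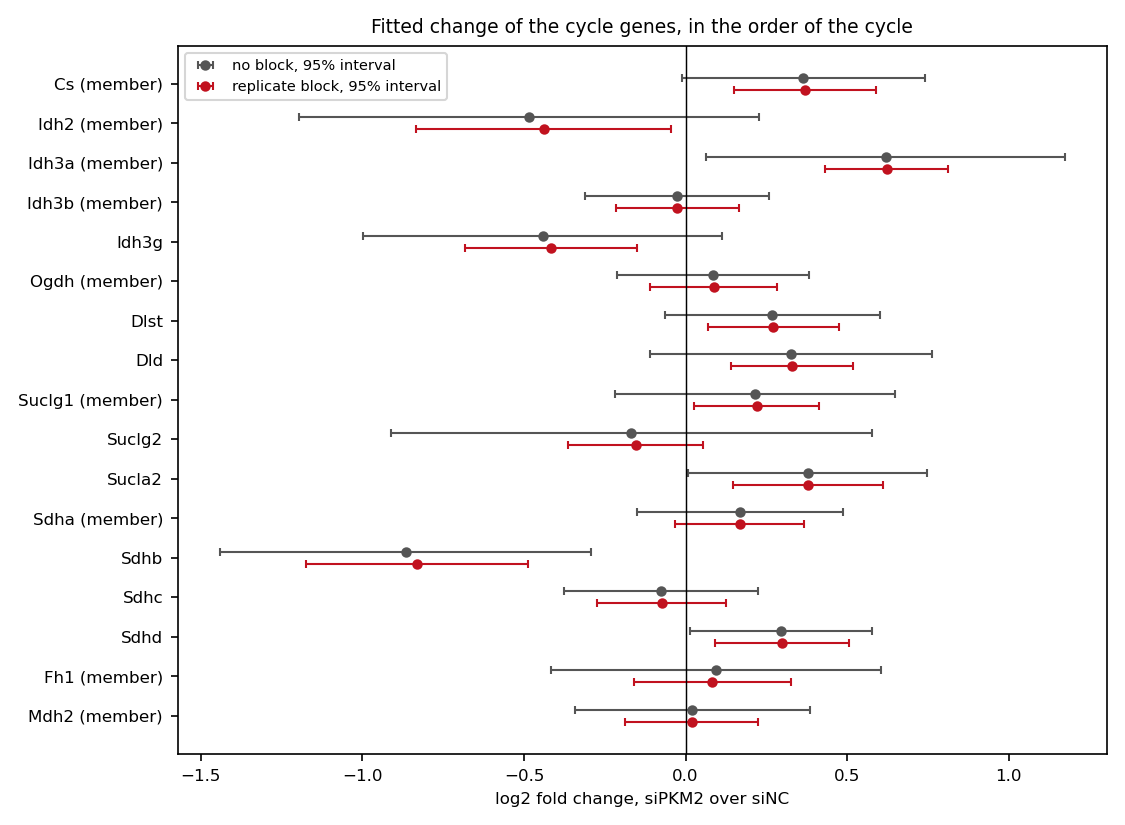
Fitted log2 fold change, siPKM2 over siNC (horizontal axis), of the 9 members and 8 further genes of the same enzymes, in the order of the cycle, from edgeR's quasi-likelihood fit without a block (grey) and with the replicate block (red), with 95% intervals. The blocked intervals are narrower for all genes shown; among members the estimates run from -0.49 for Idh2 to 0.62 for Idh3a.

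**Figure D4:**
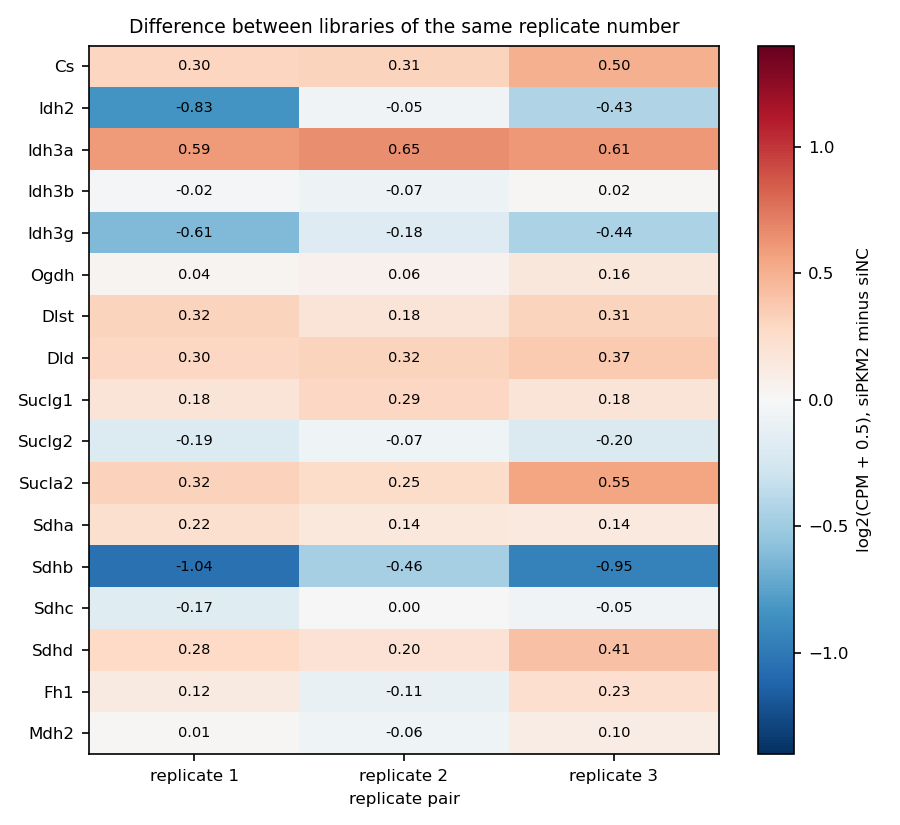
Difference in log2(CPM + 0.5), siPKM2 minus siNC, between the 2 libraries of the same replicate number, for the same genes as rows and the 3 replicate pairs as columns (blue lower, red higher, value printed in each cell). Idh3a lies between 0.59 and 0.65 in the 3 pairs, whereas Idh2, Idh3g and Sdhb are closest to 0 in pair 2.

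Set beside the 9 members, 8 further nuclear genes of the same enzymes (Idh3g, Dlst, Dld, Suclg2, Sucla2, Sdhb, Sdhc and Sdhd) moved in both directions. Without the block 0 of 8 passed in edgeR's test, 3 had an unadjusted p under 0.05, and DESeq2 called 0. For the latter 2 counts the shares of all genes were 17.6% and 5.38%. With the block 4 of 8 passed (50%, against 23.1% of all genes), with Dld and Sucla2 higher and Idh3g and Sdhb lower. DESeq2 with the block called these 4 and Sdhd, against 26.9% of all genes. Their median log2 fold change was 0.10, and their summed level was 681 ± 29.9 TPM in siNC and 662 ± 4.12 TPM in siPKM2 (SD, n = 3). Same-direction differences in CPM in all 3 pairs were found for 5 members upward and 1 downward. For the 8 genes they were 4 upward and 3 downward. Of all genes, 61.1% had them in either direction, 30.5% upward and 30.6% downward. The groups did not overlap in CPM for 3 of the 9 members (Cs, Idh3a and Sdha) and 3 of the 8 (Dlst, Sdhb and Sdhd), against 24.3% of all genes (12% higher, 12.3% lower). All 3 members were higher in siPKM2.

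Pyruvate reaches the cycle through the mitochondrial pyruvate carrier, the pyruvate dehydrogenase complex with its kinases and phosphatases, and pyruvate carboxylase. Of 14 such genes 0 passed without the block (3 at an unadjusted p under 0.05, and 1 in DESeq2, Pdp1), against 17.6% and 5.38% of all genes. With it 5 passed (35.7%, against 23.1% of all genes). Pdhx and Pdhb, structural genes of the complex, rose by log2 fold changes of 0.57 and 0.30 with the block (edgeR adjusted p = 0.019 and 0.049). Pdp1, a phosphatase that activates the complex, stood at 52.9, 25.5 and 69.96 TPM in siNC and at 13.5, 19.1 and 21.2 TPM in siPKM2, lower without overlap. Pdp1 had a log2 fold change of -1.52, and -1.42 with the block (edgeR adjusted p = 0.032). Pdk1, a kinase that inactivates the complex, and Mpc2, a subunit of the carrier, also fell with the block, with log2 fold changes of -0.43 and -0.41 (edgeR adjusted p = 0.037 and 0.040).

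Of 19 genes for enzymes and carriers that exchange cycle intermediates, 0 passed without the block (3 at an unadjusted p under 0.05, 0 in DESeq2), against 17.6% and 5.38% of all genes. With it 5 passed, 26.3% against 23.1% of all genes, which is close to the background. Got1 and Got2 encode the aspartate aminotransferases of the malate-aspartate shuttle. They rose with the block by log2 fold changes of 0.76 and 0.49 (edgeR adjusted p = 0.018 and 0.025). The malate dehydrogenases and the carriers of that shuttle did not pass with the block. Slc25a22, a glutamate carrier, and Slc25a10, a dicarboxylate carrier, rose by 0.60 and 0.40 (edgeR adjusted p = 0.014 and 0.033). Acly, which splits citrate in the cytosol, fell with a log2 fold change of -0.45 (edgeR adjusted p = 0.021). Median log2 fold changes were -0.12 for the entry genes and 0.04 for the exchange genes.

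Leaving out replicate pair 1 or pair 3 removed every blocked call, while the estimates for Cs and Idh3a kept their direction. Pair 2 shared that direction, with differences in log2(CPM + 0.5) of 0.31 for Cs and 0.65 for Idh3a. Left with pairs 2 and 3, Cs and Idh3a had blocked log2 fold changes of 0.41 and 0.63 (edgeR adjusted p = 0.16 and 0.082), and left with pairs 1 and 2, of 0.31 and 0.63 (edgeR adjusted p = 0.26 and 0.11). In both of these fits 0 genes of the whole table passed. Pair 2 was the one with the low chondrocyte markers. Its siNC library also had an interferon-response sum of 1955 TPM, against 40.3 and 74.1 TPM in siNC replicates 1 and 3. Without pair 2, 3 members passed, Cs (0.39), Idh2 (-0.64) and Idh3a (0.60), beside 39.1% of all genes. The part of either trait in this was not tested. Over the 20 alternatives run, the adjusted p ranged from 0.0074 to 0.62 for Cs, from 2.3e-05 to 0.57 for Idh3a and from 0.0062 to 0.75 for Idh2. For Sdhb it ranged from 8.2e-05 to 0.45. Direction held in all 20 alternatives for Cs, Idh2, Idh3a, Ogdh, Suclg1 and Sdha, and not for Idh3b, Fh1 and Mdh2, whose changes were near 0.

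An siRNA can also lower transcripts that match positions 2 to 8 of its antisense strand, the seed. The antisense strand of the third siPkm2, the design that the study's supplement carries forward, is shown with its seed in capitals, since matches to it were looked for in 3′ untranslated regions, taking the longest that GENCODE gives for a gene.
siPkm2 #3 antisense: uGUUUCUCcagacagcaugtt
No member held the site GAGAAAC (0 of 9). Nor did any of the 8 further genes of the same enzymes (0 of 8), while among all 13283 tested genes with such a region 17.9% did. The absence of these letters says nothing on matches elsewhere in the transcripts.

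Promoter windows of RefSeq (GRCm38.p6, from 250 bases before to 50 after the start) were given for 8 of the 9 members and for 7 of the 8 further genes, with Idh3a and Sdhc absent. Short cores of motifs known from promoters of mitochondrial genes were searched on both strands. None of these letter strings contains another, and the matches found did not overlap. TGCGCA, a half-site of NRF1 that reads the same on both strands, was in 5 of these 15 (Ogdh, Sdha, Mdh2, Dld and Sdhd) and in 8.79% of 27025 genes with a window. CCGGAAG, an ETS core, was in 5 (Idh3b, Idh3g, Dlst, Sdhb and Sdhd) and in 9.93% of genes. AAGGTCA, an ERR half-site, was in 2 (Ogdh and Sdhd) and in 5.38% of genes, and GATGGCG, a YY1 core, was in 1 (Idh3g) and in 4.04%. The matches in members are printed with their surroundings and the motif in capitals, to show which of the 9 promoters carry them.
Ogdh, NRF1, chr11:6292531-6292558, plus strand: gctaggtgttgTGCGCAtgcgtaactca
Ogdh, ERR, chr11:6292154-6292182, plus strand: ggacacggcgcTGACCTTggtgcctgcgg
Sdha, NRF1, chr13:74350280-74350307, minus strand: gaggggcgtgtTGCGCAggcgcagaatc
Sdha, NRF1, chr13:74350235-74350262, minus strand: gcgcgactcggTGCGCAagcgcagtctg
Mdh2, NRF1, chr5:135778646-135778673, plus strand: cgggcggccacTGCGCAgagtggaggtc
Idh3b, ETS, chr2:130284439-130284467, minus strand: gaccgcgctcgCTTCCGGcgtcacttccc
In Ogdh (ERR) and Idh3b the motif is read on the strand opposite to the gene. The windows of Cs, Idh2, Suclg1 and Fh1 held none of the 4 motifs. Of these genes Cs rose with the block and the others did not pass.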

How the data were processed

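RNA-seq libraries of siNC (n = 3) and siPKM2 (n = 3) chondrocytes were compared. The authors deposited estimated counts per gene (not normalized, some fractional) and TPM per library, as well as the authors' own mean TPM, fold change (ratio), log2 fold change and p-values, which were not used. The submitters' processing notes list edgeR and mm9; aligner and counting method are not given in the sources used here. Counts were rounded, filtered by filterByExpr (15269 genes), scaled by TMM and tested with edgeR 4.0.16's quasi-likelihood test in R 4.3.3, with Benjamini-Hochberg adjustment over these genes. Intervals are 95%. The scripts were tested on simulated data. DESeq2 1.42.0 and limma 3.58.1 on log2(TPM + 1) served as alternatives, beside other scalings and filters, the replicate block, and each library or pair left out. The numbers pair the libraries by the data: deviations of same-numbered libraries from their group means correlated at 0.72, 0.79 and 0.72 across genes, and those of other numbers at 0.22 or below. The labels do not say what a number stands for, nor that cultures came from separate animals, so p-values measure only the spread between these libraries.

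One gene of a list is not reported here. The 9 members and the gene lists were chosen with earlier results of these data known. Named were the members, the further subunits, Pkm, those entry and exchange genes that passed with or without the block (at most 10, by the lowest blocked p), and the 5 genes outside the lists whose profile over libraries correlated best with that of the members. Positions came from GENCODE M21 on GRCm38, in which 94.0% of 55416 identifiers were found; the files give no coordinates.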

Additional observations from a re-analysis of the deposited data

How the results depend on the processing

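The replicate numbers paired the libraries, and fitting them as a replicate block raised the genes with an adjusted p under 0.05 from 0 to 3524 (890 of them beyond a fold of 2), the members from 0 to 2, the other cycle subunits from 0 to 4, and the entry and exchange genes from 0 to 5 each. Pkm passed as well (0.074 without and 0.0093 with the block), and no other call among the cycle genes changed. DESeq2 with the block gave 3889 genes (1017 beyond the fold), 2 members, 5 other subunits and 5 genes in each of the other lists. DESeq2 without it gave 829 (430), 0 members, 0 other subunits and 1 entry gene. The block left 1639 genes beyond the fold without replicate pair 2 and 0 without pair 1 or pair 3. In those fits the numbers with an adjusted p under 0.05 ran from 0 to 5941 genes, 0 to 3 members, 0 to 6 other subunits, 0 to 6 entry genes and 0 to 6 exchange genes.

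In edgeR without the block, 3 genes passed with upper-quartile factors, 3 with no scaling, 3 at 10 counts or more in every library and 9 with no filter, under both rules. In limma on TPM 1 gene passed with either pseudocount and without the filter. Leaving out each library gave 0 to 105 genes, the 105 without siNC replicate 2, with 0 to 1 entry genes and 0 members.

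The members' median log2 fold change was 0.027 with upper-quartile factors, under which the median of all genes was -0.09, and 0.17 with the block without pair 2. It ran from 0.035 to 0.22 when each library was left out (lowest without siNC replicate 3, highest without siPKM2 replicate 2). Changes near 0 turned sign. Mdh2 was at -0.046 with upper-quartile factors, -0.017 with no scaling, -0.013 on each TPM scale, -0.020 with the block without replicate 3, and between -0.054 and 0.11 when each library was left out. Leaving out libraries gave -0.082 to 0.015 for Idh3b, -0.084 to 0.26 for Fh1 and -0.40 to 0.040 for Suclg2. The causes were not tested. With 3 libraries a group, changes whose 95% interval held 0 could not be told from 0, at a depth of 22316996 counts or more in every library.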

Other observations

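Over the 6 libraries, the mean profile of the 9 members (each gene's log2(CPM + 0.5) centred on its own mean) was 0.11, -0.19 and -0.10 in siNC and 0.18, -0.06 and 0.07 in siPKM2 replicates 1, 2 and 3. Replicate 1 was the highest and replicate 2 the lowest library within each group. The genes whose profile was most like it, of 9693 ranked, were Apex1 (r = 0.997), Vps26c (0.997), Gm20390 (0.995), Atp6v1g1 (0.994) and Nars (0.994), each over the 6 libraries that all genes share. They were picked for a profile that already holds the difference between the groups, so their own changes are no separate result. Gm20390, Atp6v1g1 and Nars passed with the block in edgeR's test (adjusted p = 0.036, 0.031 and 0.038), as did 23.1% of all genes. Their log2 fold changes without it were 0.55, 0.35 and 0.35. Apex1 and Vps26c did not pass with the block in edgeR's test (adjusted p = 0.062 and 0.15).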
